A study of Homo sapiens with 27 samples.

Results

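Caco2 and HepG2, established human tumour cell lines of endodermal origin, were compared over their 6 poly-A RNA sequencing libraries, 3 labelled Caco2 and 3 labelled HepG2. The series holds 27 libraries of 9 cell lines, and the 6 were chosen by the cell line label alone. Caco2 was derived from a colorectal adenocarcinoma and carries the tissue label colon, and HepG2 was derived from a liver tumour and carries the tissue label liver. Per the labels, both lines were kept in EMEM with 10% fetal bovine serum and streptomycin, and no treatment, genetic change or time point separates the groups. The series design calls the 3 libraries of a line biological replicates, and their titles carry different P numbers (7, 8 and 9 for Caco2, and 4, 7 and 5 for HepG2) that the labels do not explain. Replicate numbers 1 to 3 were given here in the order of the sample records and pair no libraries. The p-values rest on the spread among 3 libraries per line, which may be technical if the libraries do not come from separate cultures. Each tissue is represented by 1 tumour line, so line and tissue cannot be told apart.

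The epithelia of gut and liver both arise from the embryonic endoderm and share a set of transcription factors, among them the nuclear receptor HNF4A and the forkhead FOXA proteins. The caudal homeodomain factor CDX2 sets intestinal identity, whereas hepatocytes use CEBPA, PROX1, ONECUT factors and the bile acid receptor NR1H4 beside the shared set. Hepatocytes secrete most plasma proteins, assemble lipoproteins, make bile acids and detoxify nitrogen. Enterocytes carry a brush border of microvilli with digestive enzymes and absorptive transporters, sealed by tight junctions. Caco2 is widely used as an enterocyte model and HepG2 as a hepatocyte model.

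The libraries held 15597117 to 32583547 estimated counts, and 9186763 to 26315636 once the 13 mitochondrially encoded genes were set aside. Those 13 genes took 1.70% to 3.56% of the counts in Caco2 and 71.1%, 33.8% and 32.6% in HepG2, against 0.928% to 5.72% in the 24 libraries of the other 8 lines. Among the HepG2 libraries, replicate 1 stood apart. In it, nuclear copies of mitochondrial genes took 13.0% of the remaining counts. The other HepG2 libraries had 2.84% and 2.83%, and Caco2 at most 0.186%. These copies were picked by symbol, and MTRNR2L12 was the top remaining gene of HepG2 replicate 1. The 13 genes set aside are all protein-coding, so reads of other mitochondrial transcripts could fall on the copies. The Spearman correlation of HepG2 replicate 1 with the other HepG2 libraries, across genes, was 0.955 and 0.962. It was 0.984 between the latter, and between 0.687 and 0.739 across lines. Within Caco2, replicate 2 gave 0.970 and 0.978, against 0.984 between replicates 1 and 3. Of the counts outside the mitochondrially encoded genes, retained-intron transcripts took 2.84% to 3.98% in Caco2 and 5.77% to 8.37% in HepG2. Apart from fits below that drop a library or treat mitochondrial genes otherwise, the part of these library differences in the results was not tested. Levels are CPM, that is, rounded estimated counts outside the mitochondrially encoded genes per 1000000 counts of the scaled library size. Means are given ± SD over 3 libraries, log2 differences are Caco2 minus HepG2 ± standard error, and adjusted p-values come from edgeR's quasi-likelihood test with Benjamini-Hochberg adjustment over all tested genes. For a gene with no count in a line, the fold is a lower bound against 3 counts over that line's libraries. With 1 to 3 counts, the levels are given, or the ratio of the lines' summed levels with a 95% interval that covers counting error only.

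A gene was called different at an adjusted p under 0.05 and a difference of at least 2-fold. Of 13664 tested genes, 3246 were called higher in Caco2 (23.8% of those tested) and 3262 higher in HepG2 (23.9%), together 47.6%. The 3 values of each line did not overlap for 68.2% of the tested genes. Counts in gene lists are read against these shares, and list medians against the median of 0.04 over all tested genes. Differences of at least 16-fold were found for 828 genes in Caco2 and 739 in HepG2. Among protein-coding genes, 179 had at least 1 CPM in every Caco2 library and no count in HepG2, and 48 showed the opposite pattern. These 2 counts were not matched for depth. Over a line's libraries, 3 counts correspond to 0.0972 CPM in HepG2 and 0.0429 CPM in Caco2, so a gene more easily has no count in HepG2. Without HepG2 replicate 1 the counts were 3634 and 3384, and 6180 of the 6508 calls kept their direction and call. Fewer calls were kept with library size alone (5512), limma on log2(rescaled TPM + 1) (4514) or a test against a 2-fold change (4428). The split depends on scaling: with library size alone it was 4947 against 2266, where the median of all genes moved from 0.04 to 0.56 on the log2 scale, and with limma on log2(rescaled TPM + 1) it was 5334 against 1607, with a median of 0.68.

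**Figure D1:**
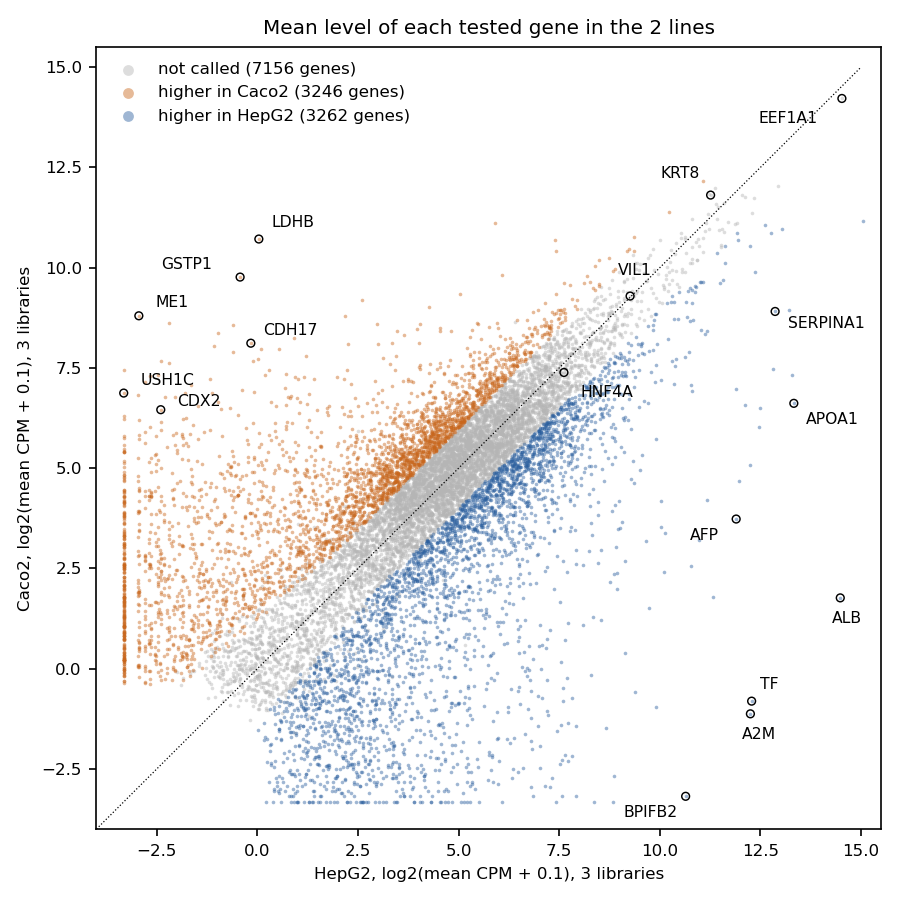
Mean level of each of the 13664 tested genes in Caco2 (vertical axis) and HepG2 (horizontal axis), both as log2(mean CPM + 0.1) over 3 libraries, with genes called higher in Caco2 in orange, genes called higher in HepG2 in blue and the rest in grey. ALB, TF, A2M and BPIFB2 lie far to the lower right, LDHB, GSTP1, ME1 and USH1C to the upper left, and HNF4A and VIL1 near the diagonal.

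The labelled tissues were checked against defining markers. ALB, the main plasma carrier protein, measured 6.20, 1.70 and 1.99 CPM in the Caco2 libraries and 14756, 28444 and 25458 CPM in HepG2. Every HepG2 value lay far above every Caco2 value, a log2 difference of -12.72 ± 0.74. CDX2 measured 101, 89.6 and 72.7 CPM in Caco2 and 0, 0.268 and 0 CPM in HepG2, 3 counts over that line, and the ratio of summed levels was 924 (95% interval 316 to 4482). CDH17, an intestinal cadherin, followed the same direction with 250.98, 288.72 and 292 CPM against 1.47, 0.0893 and 0.82 CPM. Sucrase-isomaltase (SI), a digestive enzyme of the brush border, was low in Caco2 at 5.02, 1.13 and 2.33 CPM and had no count in HepG2. Intestinal alkaline phosphatase (ALPI) had 13.2, 17.7 and 21.9 CPM in Caco2 and no count in HepG2, at least 173-fold higher in Caco2. VIL1, the actin bundler villin used as an enterocyte marker, did not separate the lines, with 561, 748 and 569 CPM in Caco2 and 592, 535 and 712 CPM in HepG2 (0.03 ± 0.23, adjusted p 0.917). With an offset for mean transcript length, however, VIL1 was called higher in Caco2 at a log2 difference of 1.37. It was also called higher in Caco2 with limma on log2(rescaled TPM + 1), at 2.115 (adjusted p 3.17e-05). Mean rescaled TPM of VIL1 was 362 in Caco2 and 80.5 in HepG2. KRT20 and LGALS4, other enterocyte markers, stayed at or under 1.60 CPM in every library and were not tested.

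Markers of other cell types were near 0 in both lines for the most part. The goblet cell genes SPDEF and CLCA1 did not exceed 0.095 CPM in any library, and CHGA, an enteroendocrine marker, was at most 0.0628 CPM. The other enteroendocrine marker, NEUROD1, was at most 0.0304 CPM in Caco2 and had 2.14, 0.536 and 0.328 CPM in HepG2. The blood cell markers HBB, SPI1 and CD3E did not exceed 0.213 CPM, and PTPRC did not exceed 1.34 CPM. Of the endothelial markers, VWF stayed at or under 0.57 CPM, CDH5 was highest in HepG2 replicate 1 at 4.01 CPM, and PECAM1 gave 4.41 ± 0.775 CPM in Caco2 and 4.94 ± 4.40 CPM in HepG2. Genes of other lineages were measurable beyond that. COL1A1 was higher in Caco2 (31.2 ± 9.31 against 7.99 ± 4.36 CPM), COL1A2 higher in HepG2 (0.307 ± 0.231 against 9.80 ± 6.22 CPM). Over the whole stellate and fibroblast list, 6 of 13 tested members were called higher in Caco2 and 6 in HepG2. The Caco2 count was 4 without HepG2 replicate 2, with the length offset or with a test against a 2-fold change. That list's summed level was 166, 934 and 266 CPM in the Caco2 libraries, highest in replicate 2, and 191 to 201.49 CPM in HepG2. ACTA2, smooth muscle actin, was among the members higher in HepG2. It had 0.274, 0.189 and 0.142 CPM in Caco2 and 48.4, 61.1 and 79.1 CPM in HepG2. The platelet-derived growth factor receptor PDGFRA had 23.3, 23.4 and 38.6 CPM in Caco2 and no count in HepG2. Of the cholangiocyte (bile duct) list, 3 of 10 tested members were higher in Caco2 and 4 in HepG2. The chloride channel CFTR was higher in Caco2 (116, 80.2 and 107 against 0.802, 0 and 0.41 CPM), while osteopontin (SPP1) had at most 0.19 CPM in Caco2 and 389.8, 51.7 and 128 CPM in HepG2. SPP1 was highest in HepG2 replicate 1. The summed level of the cholangiocyte list was 1025 to 1248 CPM in Caco2 and 1248 to 1807 CPM in HepG2. The list of immune and blood cell genes had 5 of 18 members tested, CD14 called higher in Caco2 and ITGB2 in HepG2, with a summed level of 371 to 622 CPM in Caco2 and 419 to 568 CPM in HepG2, most of it CD74. The endothelial list had 2 of 14 members tested, of which ESAM was called higher in Caco2 (1.58 ± 0.50), with a summed level of 8.15 to 11.9 CPM in Caco2 and 4.73 to 23.7 CPM in HepG2. The ESAM call was lost without Caco2 replicate 3 (1.38) or HepG2 replicate 2 (1.247). The part of these genes in the other results was not tested.

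HNF4A, of the shared endodermal set, differed by less than 2-fold. The gene (chromosome 20, 44355700 to 44434596, in GENCODE 29 on GRCh38) gave 165, 146 and 190.4 CPM in Caco2 and 200.71, 193 and 194 CPM in HepG2. The highest Caco2 value lay just under the lowest HepG2 value, and the difference of -0.23 ± 0.20 was not called (adjusted p 0.339). Its direction turned with library size alone (0.30, adjusted p 0.245) and with limma on log2(rescaled TPM + 1) (0.69, adjusted p 0.0291). CEBPB, a factor of the acute phase response, overlapped between the lines (-0.03, adjusted p 0.94). In the 7 other lines HNF4A was lower, with a mean of 11.0 rescaled TPM in A549 and at most 0.05 elsewhere, against 59.1 in Caco2 and 35.0 in HepG2. Rescaled TPM is the deposited TPM with mitochondrially encoded genes set aside and the rest scaled up to the same total.

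Of 27 tested hepatic and endoderm regulators, 21 were called higher in HepG2 and 2 in Caco2, with a median log2 difference of -1.53. The HepG2 count was 13 with library size alone and 12 with limma on log2(rescaled TPM + 1), with medians of -1.0002 and -0.86. The largest differences of the list were in bile acid sensing. NR0B2, a repressor induced by bile acid signalling, had 0.274, 0.44 and 0.095 CPM in Caco2 and 173, 221 and 332 CPM in HepG2 (-9.82 ± 0.47). Its activator NR1H4 had 0.152, 0.126 and 0.0475 CPM and 25.7, 55.4 and 51.3 CPM (-8.52 ± 0.48). No Caco2 value of either reached 1 CPM. The xenobiotic receptor NR1I2 (-7.72), the cut homeodomain factor ONECUT2 (-7.10), the circadian bZIP factor HLF (-5.51) and the membrane-bound factor CREB3L3 (-4.75) were also called higher in HepG2. PROX1 (-3.56) and HHEX (-3.49), needed for the liver bud, were in the same group. The forkhead factors were also lower in Caco2, FOXA3 at -2.40 ± 0.24, FOXA2 at -1.53 ± 0.26 and FOXA1 at -1.01 ± 0.34. FOXA1 sat at the 2-fold threshold, and its call was lost without any 1 of Caco2 replicates 2 and 3 or HepG2 replicates 2 and 3, with differences of -0.72 to -0.95. It was also lost with library size alone (-0.48, adjusted p 0.266), with limma on log2(rescaled TPM + 1) (-0.12, adjusted p 0.79) and, at -0.86 to -0.99, with RLE scaling, DESeq2, all 27 libraries, no low-count filter or the length offset. CEBPA, the main hepatocyte C/EBP factor, was 109 ± 36.0 CPM in Caco2 and 359.7 ± 116 CPM in HepG2. Among the members higher in Caco2 was the orphan receptor NR2F2 (189.6, 75.7 and 139.9 against 23.9, 16.9 and 18.4 CPM).

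Among 19 tested intestinal regulators, 11 were called higher in Caco2 and 4 in HepG2, with a median log2 difference of 2.77. KLF5, a factor of crypt cells, measured 184, 85.2 and 77.4 CPM in Caco2 and 1.60, 3.13 and 2.30 CPM in HepG2 (5.60 ± 0.43). ELF3 (2.77 ± 0.27), an epithelial ETS factor, the vitamin D receptor VDR (3.57 ± 0.33) and the carotenoid-sensing homeodomain factor ISX (2.57 ± 0.42) had the same direction. KLF4 (6.01 against 0.0571 CPM), PDX1 (2.40 against 0.0445 CPM), the stem cell factor ASCL2 (8.39 against 0.171 CPM) and MYB (0.923 against 0.0298 CPM) were higher in Caco2 at low means. GATA6 was called higher in Caco2 with 215, 110.5 and 107 CPM against 9.62, 14.9 and 15.3 CPM. Its paralog GATA4, also listed as intestinal, was called higher in HepG2 with 2.89, 2.45 and 3.94 CPM against 53.7, 81.9 and 75.6 CPM. SOX9, a factor of crypt base and bile duct cells, was 79.8 ± 27.9 CPM in Caco2 and 427 ± 97.1 CPM in HepG2. The Notch target HES1 was not called: Caco2 replicate 1 stood at 996 CPM while the other Caco2 libraries had 82.7 and 131 CPM, overlapping HepG2. HES1 was called higher in Caco2 when either of those other libraries was left out (2.78 without Caco2 replicate 2, 2.71 without replicate 3). CDX1, ATOH1, SPDEF, EHF and ZNF750 were too low in both lines to be tested.

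**Figure D2:**
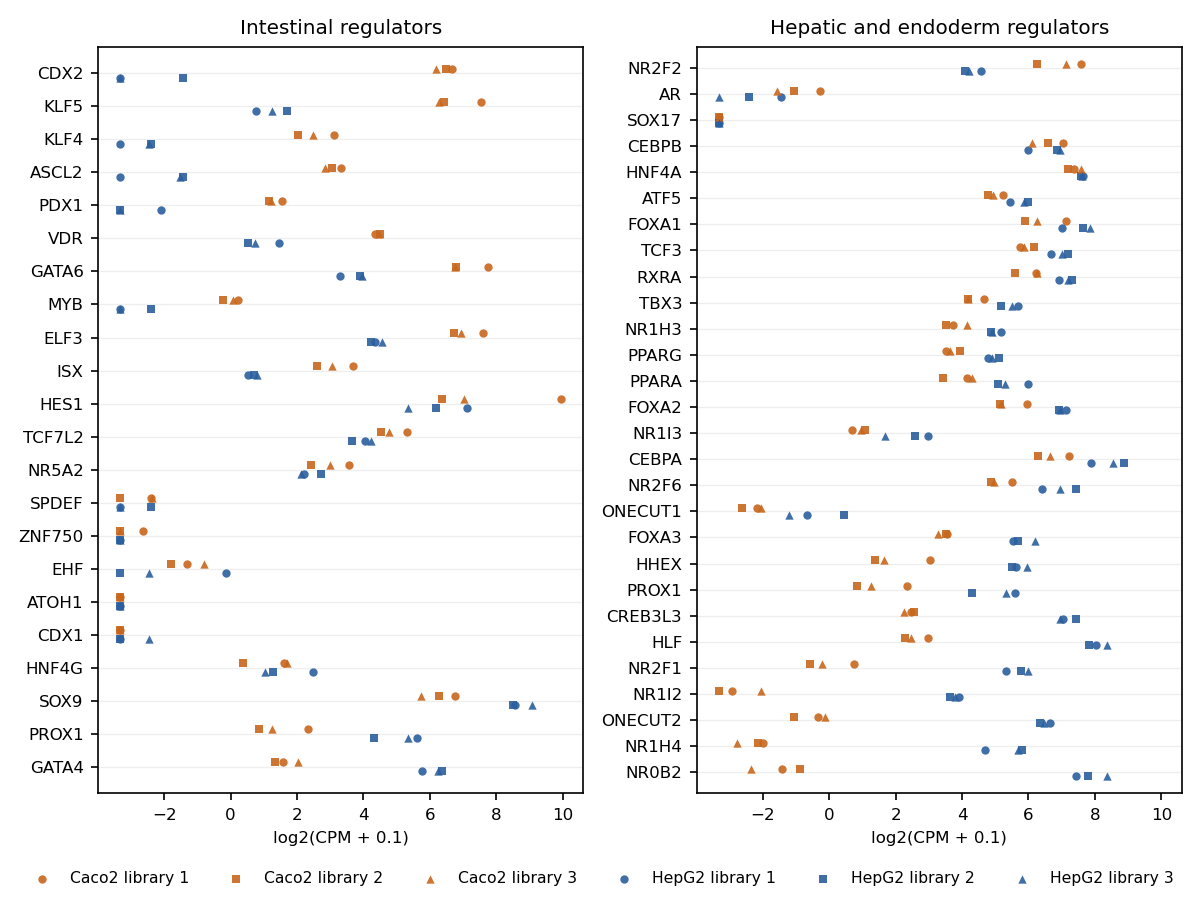
Levels of the intestinal (left) and the hepatic and endoderm regulators (right) in each library, as log2(CPM + 0.1), with Caco2 libraries in orange, HepG2 libraries in blue and marker shapes for replicates 1 to 3. CDX2 is separated by the widest gap on the left, NR0B2 and NR1H4 on the right, while HNF4A and CEBPB lie close together.

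HNF4A is read from a pair of promoters, an upstream P2 active in gut and fetal liver and a downstream P1 that dominates in adult liver. Of its 9 annotated transcripts in the tables, 5 start at P2, between positions 44355700 and 44355805 of chromosome 20, and the rest at P1, between 44401270 and 44401301. The 120 bases before the RefSeq start of each promoter are shown, on the forward strand of GRCh38.p14 (RefSeq promoter table). They are given because the estimated share of TPM from each promoter's transcripts did not overlap between the lines.
HNF4A P2, chr20:44355579-44355698: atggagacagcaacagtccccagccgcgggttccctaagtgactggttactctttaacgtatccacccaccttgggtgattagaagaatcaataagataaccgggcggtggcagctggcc
HNF4A P1, chr20:44401119-44401238: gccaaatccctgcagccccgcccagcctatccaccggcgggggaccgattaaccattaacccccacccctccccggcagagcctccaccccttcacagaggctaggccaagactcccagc
The share of HNF4A TPM from P2 transcripts was 93.9%, 92.6% and 88.6% in Caco2 and 84.9%, 82.6% and 80.2% in HepG2. Each Caco2 library exceeded each HepG2 library, with means of 91.7 ± 2.74% and 82.6 ± 2.33%. The difference of 9.11 percentage points had an exact two-sided permutation p of 0.1, the smallest that 3 against 3 libraries can give, so it could not pass 0.05. Most P2 reads went to 1 transcript of 4763 bases, and P1 reads mainly to 1 of 6445 bases, except in Caco2 replicate 3. By these estimates, P2 transcripts held most of the HNF4A TPM in both lines, HepG2 included. The split among annotated transcripts is estimated, and reads particular to either promoter's first exon were not examined.

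Exact matches to short core motifs of these factors were counted, on both strands, in RefSeq promoter windows of 300 bases (250 before to 50 after each start). Windows were found for 10358 of the tested genes (75.8%). The HNF4 core CAAAGTCCA stood in the windows of 15 of 2447 genes higher in Caco2 (0.613%), 23 of 2327 higher in HepG2 (0.988%) and 0.322% of genes not called, against 0.472% of all genes of the table. The FOXA core TGTTTAC stood at 3.96% of genes higher in Caco2 and 3.39% of those higher in HepG2. Its share was 3.4% of genes not called and 4.19% of all genes of the table. The CDX core TTTATGG stood at 2.41% and 2.71%, against 1.9% of genes not called and 3.16% of all genes. The TATA box TATAAA stood at 11.4% and 10%, against 6.61% of genes not called and 14% of all genes. Matches of different motifs may overlap, windows per gene numbered 1.5, 1.52 and 1.43 in the 3 groups, and no test was made. A match describes letters only.

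Stretches around the matches are shown for genes with a fitted difference of at least 16-fold, so that the letters can be read beside the direction. All are 5′ to 3′ on the gene's strand in GRCh38.p14 with the motif in capitals. Of 9 such called genes with the HNF4 core, 7 held it wholly before the start, and 4 of these are shown, a pair from each direction. Where the core reads on the other strand, it appears as TGGACTTTG.
PROZ, chr13:113158584-113158647, forward strand: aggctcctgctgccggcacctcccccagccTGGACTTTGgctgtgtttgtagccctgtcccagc
SMLR1, chr6:130827356-130827405, forward strand: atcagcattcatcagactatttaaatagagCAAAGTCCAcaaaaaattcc
CYP2R1, chr11:14892359-14892427, reverse strand: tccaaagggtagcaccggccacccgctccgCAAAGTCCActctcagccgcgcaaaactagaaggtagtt
MUC13, chr3:124934764-124934832, reverse strand: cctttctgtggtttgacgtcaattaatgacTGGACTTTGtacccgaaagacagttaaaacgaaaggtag
PROZ, a vitamin K-dependent plasma protein (-5.16), and SMLR1 (-4.90) were higher in HepG2. The vitamin D 25-hydroxylase CYP2R1 (5.97) and the membrane mucin MUC13 (4.96) were higher in Caco2. The MUC13 window belongs to a start inside the annotated gene.

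Plasma proteins and lipoprotein genes were the most one-sided lists toward HepG2. Of 28 tested plasma carriers and protease inhibitors, 25 were higher in HepG2 and 1 in Caco2, with a median log2 difference of -6.23. The iron carrier TF (chromosome 3, 133745956 to 133796640) had 0.608, 0.566 and 0.237 CPM in Caco2 and 4366, 5835 and 4718 CPM in HepG2 (-13.32 ± 0.47). The broad protease trap A2M (chromosome 12, 9067664 to 9116229) measured 0.365, 0.377 and 0.332 CPM against 4360.3, 4364 and 5881 CPM (-13.70 ± 0.41). Every Caco2 value of both lay under 1 CPM. Not all plasma proteins were so divided. SERPINA1, the inhibitor of neutrophil elastase, had 455, 647 and 337 CPM in Caco2 and 6088, 8387 and 7879 CPM in HepG2. The retinol carrier RBP4 (-2.86 ± 0.43) and transthyretin (TTR, 151, 188 and 98.6 against 521, 1082 and 1511 CPM) were likewise expressed in Caco2 at lower levels. Vitronectin (VTN), a matrix and complement regulator, was the member higher in Caco2, with 583, 1506 and 1047 CPM against 260.4, 471 and 267 CPM (1.65 ± 0.37). KNG1 overlapped between the lines (0.40, adjusted p 0.286).

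Lipoprotein genes had 17 of 21 tested members higher in HepG2 and none called higher in Caco2 (median -4.25). That count of 0 by edgeR's quasi-likelihood test was also 0 by DESeq2, was 1 with library size alone or with the length offset, and was 2 with limma on log2(rescaled TPM + 1). At an unadjusted p under 0.05, 1 member (SAR1B) was higher in Caco2. APOA1, the main protein of high-density lipoprotein, measured 87.5, 147 and 59.7 CPM in Caco2 and 6758, 14769 and 9329 CPM in HepG2 (-6.71 ± 0.49). APOB, the scaffold of chylomicrons and very-low-density lipoprotein, was 193, 162 and 180.2 CPM in Caco2 and 6789.6, 5820.0 and 8786 CPM in HepG2 (-5.32 ± 0.30). APOC2, the lipoprotein lipase cofactor, showed the widest gap of the list, 0.274, 0.691 and 0.285 CPM against 667, 1180.5 and 1041 CPM (-11.26 ± 0.48). MTTP, the protein that loads lipid onto APOB, measured 0, 0.0628 and 0.0475 CPM in Caco2 and 70.4, 66.3 and 52.3 CPM in HepG2. Caco2 thus had measurable APOB and APOA1 but almost no APOC2 or MTTP. PLTP (0.28), APOA4 (-0.39) and SAR1B (0.68), a coat protein of chylomicron transport, were not called.

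Of 18 tested coagulation genes, 14 were higher in HepG2 and 1 in Caco2 (median -5.64). SERPINF2, the plasmin inhibitor (chromosome 17, 1742836 to 1755268), had no count in any Caco2 library and 450.3, 563 and 368 CPM in HepG2, at least 10684-fold higher. The fibrinogen chains FGA (-6.95 ± 0.41), FGB (-5.88 ± 0.46) and FGG (-6.46 ± 0.60) had similar differences. Prothrombin (F2) was 26.2 ± 4.60 CPM in Caco2 and 623 ± 81.5 CPM in HepG2. Tissue factor (F3), the membrane trigger of clotting, was the member higher in Caco2 (22.1, 19.4 and 19.4 against 6.15, 4.29 and 4.59 CPM). F7, the factor it binds, did not reach 2-fold (-0.68). Among 22 tested complement genes, 16 were higher in HepG2 and 2 in Caco2 (median -4.35). The central component C3 measured 8.91, 42.9 and 24.9 CPM in Caco2 and 3677, 4204 and 4091 CPM in HepG2. The members higher in Caco2 were the membrane regulators CD55 (377, 439 and 351 against 21.5, 11.3 and 15.9 CPM) and CD46 (1.37 ± 0.25). C4A and C4B are near-identical copies between which reads could be split, and both were higher in HepG2.

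The genes with the largest differences included several outside those lists. BPIFB2 (chromosome 20, 33007600 to 33023709), a secreted lipid-binding fold protein, had 1 count over the Caco2 libraries and 1495, 1568 and 1725 CPM in HepG2. Its ratio of summed levels was 112627 (95% interval 20214 to 4448530.0). DLK1, an imprinted Notch-type ligand of fetal liver, had no count in Caco2 and 136, 527 and 324 CPM in HepG2, at least 8198-fold higher. HepG2 replicate 1 was the lowest of the 3. The imprinted zinc finger gene PEG3 (241.18 ± 37.4 CPM), the basement membrane gene FREM1 (at least 1567-fold), the fatty acid elongase ELOVL2 (116 ± 32.7 CPM) and BEX1 (at least 841-fold) were also among the leading HepG2 genes. MAGED4B was there as well, but reads could be split with its near-identical copy MAGED4.

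Leading Caco2 genes were of other kinds. USH1C (chromosome 11, 17493895 to 17544416), the harmonin scaffold of microvillus links, had 100.1, 134 and 116 CPM in Caco2 and no count in HepG2, at least 1161-fold higher. The cytosolic malic enzyme ME1 (chromosome 6, 83210389 to 83431071) had 486, 443 and 406 CPM in Caco2 and 1 count over the HepG2 libraries. Its ratio of summed levels was 13956 (95% interval 2505 to 551253). The homeobox gene MSX2 (at least 844-fold), the potassium channel KCNJ8 (at least 745-fold), the epithelial factor GRHL2 (at least 578-fold) and the folate receptor FOLR1 (at least 457-fold) had no count in HepG2. So did the meiotic axis gene SYCP2, the prostaglandin dehydrogenase HPGD, the retinoic acid binder CRABP1 and IRF8, a factor best known from blood cells, at 27.8, 24.6 and 36.6 CPM in Caco2. These bounds are set by the depth of HepG2, where 3 counts over the line correspond to 0.0972 CPM.

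Bile acid genes had 12 of 19 tested members higher in HepG2 and 4 in Caco2 (median -3.16). CYP27A1, which opens the acidic synthesis route, measured 13.6, 15.4 and 13.1 CPM in Caco2 and 332, 347 and 378 CPM in HepG2 (-4.65 ± 0.23). CYP7A1, the rate-limiting enzyme of the classical route, was low even in HepG2 (0, 0 and 0.0475 against 2.94, 5.00 and 4.67 CPM). HSD3B7 (-7.21), CYP8B1 (-4.52) and the FGF19 coreceptor KLB (-6.27) had the same direction. Higher in Caco2 were SLC51B, an ileal export subunit (1.06 ± 0.34), the ileal binding protein FABP6 (no count in HepG2, at least 21.1-fold) and AMACR (1.65 ± 0.31). The SLC51B call was lost without Caco2 replicate 1 (0.93) or HepG2 replicate 1 (0.75). The hepatocyte uptake transporter SLC10A1 was also higher in Caco2, with 4.10, 2.64 and 1.95 CPM against 0, 0.179 and 0 CPM, low levels in both lines. ABCB11, the canalicular bile salt pump, had no count in either line.

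Of the 28 listed cytochromes P450, 15 were tested, with 7 higher in HepG2 and 4 in Caco2. The summed level of the list was 288 to 397 CPM in Caco2 and 308 to 378 CPM in HepG2. CYP3A4, the main drug oxidase of adult liver and gut, did not exceed 0.668 CPM in any library. CYP3A7, its fetal form, was higher in HepG2 (0.426, 0.189 and 0.19 against 3.21, 2.95 and 3.28 CPM). CYP4F12 (-8.19 ± 0.50) had the largest difference toward HepG2. CYP1A1, induced by aryl hydrocarbons, was higher in Caco2 (5.87, 15.1 and 16.0 against 0.668, 1.52 and 0.902 CPM), as were CYP2S1 (3.30 ± 0.25) and CYP2R1. The list median was -0.22, and it turned to 0.24 with library size alone, to 0.27 with limma on log2(rescaled TPM + 1) and to 0.02 with the length offset. It was -0.75 without Caco2 replicate 2 and -0.09 without HepG2 replicate 3. Conjugating enzymes had 14 of 23 tested members higher in HepG2 and 4 in Caco2 (median -1.52), and 9 were higher in HepG2 with limma on log2(rescaled TPM + 1). The steroid sulfotransferase SULT2A1 was 3.41, 1.57 and 1.71 CPM in Caco2 and 296, 329.7 and 489 CPM in HepG2. The glutathione transferase GSTP1 went the other way with 609, 1225 and 773 CPM against 0.535, 0.982 and 0.41 CPM (10.37 ± 0.47). Every HepG2 library was under 1 CPM for GSTP1. UGT1A6 had no count in HepG2 and 34.5, 58.9 and 40.3 CPM in Caco2, but UGT1A genes share exons, so reads could be split among them.

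In amino acid catabolism and the urea cycle, 13 of 28 tested genes were higher in HepG2 and 6 in Caco2. The list median of -0.69 was -0.16 with library size alone and 0.08 with limma on log2(rescaled TPM + 1). CPS1, the entry enzyme of the urea cycle, measured 2.89, 0.817 and 2.66 CPM in Caco2 and 57.6, 70.8 and 66.6 CPM in HepG2 (-4.89 ± 0.39). The cycle's cytosolic enzymes ASS1 (0.62 ± 0.21) and ASL (0.99 ± 0.30) were not called, and OTC and ARG1 were too low for a test. The tyrosine pathway was higher in HepG2 at TAT (0.0304 against 17.7 CPM), HPD (-9.31) and FAH (-1.74). HGD, the step between HPD and FAH, was not called (-0.77). Proline oxidase PRODH was the member furthest toward Caco2, with 4.38, 3.33 and 6.46 CPM against 0.134, 0.0893 and 0.082 CPM.

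Carbohydrate isozymes had 9 of 36 tested members higher in Caco2 and 13 in HepG2 (median -0.59, but 0.12 with limma on log2(rescaled TPM + 1), where 6 were higher in HepG2). The lactate dehydrogenase subunits were divided. LDHB measured 1393, 2023 and 1616 CPM in Caco2 and 0.668, 1.70 and 0.41 CPM in HepG2 (10.80 ± 0.51), so HepG2 was nearly without it. LDHA had 375, 574 and 325 CPM in Caco2 and 1161, 1678 and 1349 CPM in HepG2 (-1.72 ± 0.28). Of the phosphofructokinases, PFKM (92.4, 128 and 137 against 0.802, 0.804 and 0.902 CPM) and PFKP (83.6, 241.72 and 138 against 2.14, 1.61 and 1.64 CPM) were higher in Caco2, while the liver form PFKL overlapped (0.05, adjusted p 0.879). Hexokinase 1 (HK1, 4.71 ± 0.44) and the neuronal-type glucose transporter SLC2A3 (2009, 2007 and 2576 against 78.8, 61.7 and 39.8 CPM) were higher in Caco2. The liver genes G6PC (no count in Caco2, at least 93.5-fold), GCKR (-5.35 ± 0.48) and the fructose enzymes KHK (-2.15 ± 0.23) and TKFC (-3.49 ± 0.27) were higher in HepG2. The intestinal glucose transporter SLC5A1 had 1.22, 3.52 and 1.28 CPM in Caco2 and no count in HepG2.

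Lipid synthesis was less divided in the reported fit. Of 31 tested genes, 5 were higher in Caco2 and 7 in HepG2, and the median of -0.13 changed sign with library size alone (0.42), with limma on log2(rescaled TPM + 1) (0.67), and without Caco2 replicate 2 (0.06) or HepG2 replicate 2 (0.04). The HepG2 count was 2 without Caco2 replicate 2 and 3 without HepG2 replicate 2. With library size alone, 8 genes were higher in Caco2 and 1 in HepG2. With limma on log2(rescaled TPM + 1), 9 were higher in Caco2 and 1 in HepG2. INSIG1, which holds the sterol sensor back, had 30.7, 12.0 and 21.5 CPM in Caco2 and 0.134, 0 and 0.082 CPM in HepG2. The fatty acid synthase FASN (-1.23 ± 0.37) and the lipogenic regulator SREBF1 (-1.11 ± 0.21) were called higher in HepG2, and both turned direction with limma on log2(rescaled TPM + 1), to 0.47 and 0.30. The FASN call was also lost without Caco2 replicate 1 (-1.02), Caco2 replicate 2 (-0.97) or HepG2 replicate 2 (-0.89). In fatty acid oxidation and ketogenesis, 10 of 21 tested genes were higher in HepG2 and 4 in Caco2 (median -0.79). The Caco2 count was 2 without HepG2 replicate 2 and 8 with limma on log2(rescaled TPM + 1). The coactivator PPARGC1A had 0.0608, 0 and 0 CPM in Caco2 and 23.4, 19.1 and 25.0 CPM in HepG2. CPT1A, the gate for fatty acids into mitochondria, was 3.56, 3.27 and 4.56 CPM against 79.8, 37.1 and 46.4 CPM.

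Brush border and enterocyte genes did not fall on the Caco2 side as a block. Of 29 tested members, 12 were higher in Caco2 and 10 in HepG2 (median 0.91). Toward Caco2 were the scaffolds USH1C and PDZK1 (152, 71.3 and 126 against 35.7, 25.4 and 47.2 CPM), the myosin MYO7B (at least 23.4-fold), lactase (LCT, at least 9.58-fold) and ezrin (EZR, 1.10 ± 0.20). Toward HepG2 was aminopeptidase N (ANPEP), a classical brush border enzyme, with 4.59, 4.96 and 5.84 CPM in Caco2 and 410.0, 542 and 506 CPM in HepG2 (-6.56 ± 0.28). The protocadherin CDHR2 (-5.40 ± 0.29), the actin bundler ESPN (-4.13 ± 0.33) and the cholesterol transporter NPC1L1 (-1.45 ± 0.28) had the same direction. The fatty acid binder FABP1, found in both organs, measured 104, 104 and 67.2 CPM in Caco2 and 354, 1042 and 761 CPM in HepG2. In the 7 other lines FABP1 had a mean of at most 0.24 rescaled TPM. The peptidase DPP4 was not called (193 ± 15.3 against 103 ± 25.3 CPM).

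Epithelial junction genes were called mostly toward Caco2: 21 of 33 tested members, against 3 toward HepG2 (median 1.99). E-cadherin (CDH1) measured 658, 567 and 714 CPM in Caco2 and 39.8, 18.8 and 39.9 CPM in HepG2 (4.30 ± 0.33). N-cadherin (CDH2) was the reverse, 0.0912, 0 and 0.142 CPM against 111, 52.2 and 81.6 CPM (-9.78 ± 0.52). Neither gene overlapped between the lines. Cingulin (CGN, 148, 140.3 and 191 against 1.74, 0.982 and 0.41 CPM), claudin 7 (CLDN7, 9.62 ± 0.48), claudin 4 (CLDN4, 2.07 ± 0.27) and the tricellular protein MARVELD2 (6.22 ± 0.55) are parts of the tight junction and were higher in Caco2. The epithelial splicing factor ESRP1 had 194, 121 and 161 CPM in Caco2 and 0, 0 and 0.246 CPM in HepG2, while its paralog ESRP2 was not called (0.28). The membrane protease ST14 (6.33 ± 0.36) and its partner PRSS8 (4.64 ± 0.29) and the transcription factor OVOL1 (8.40 ± 0.70) were also higher in Caco2. Claudin 1 (-0.94) and TJP3 (-0.07) were not called, and DSC2 (-1.16 ± 0.26) was called higher in HepG2, though its call was lost without Caco2 replicate 2 (-0.89). The simple epithelial keratins KRT8 (3585 ± 1082 against 2453 ± 412 CPM) and KRT18 (0.62) were not called. Of the 23 tested keratin, mucin and cytoskeleton genes, 11 were higher in Caco2 and 6 in HepG2 (median 1.00, but 0.51 without Caco2 replicate 2). The HepG2 count was 3 with library size alone or with limma on log2(rescaled TPM + 1). The mucin MUC3A (5.08 ± 0.43) and S100A14 (4.37 ± 0.30) were among those higher in Caco2, and KRT23 (-5.09 ± 0.46) and S100P (-4.47 ± 0.30) among those higher in HepG2. CEACAM6 varied within Caco2, at 3.34, 33.9 and 8.55 CPM, and so did ANXA1 at 8.54, 63.1 and 17.2 CPM, each highest in replicate 2.

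Secretory gut lineage genes had 11 of 32 listed members tested, with 5 higher in Caco2 and 3 in HepG2. Without HepG2 replicate 1, 8 were higher in Caco2. AGR2, a disulfide isomerase of mucus cells, measured 88.3, 118 and 77.1 CPM in Caco2 and 2.41, 0.357 and 1.89 CPM in HepG2. Lysozyme (LYZ), made by Paneth cells and macrophages, was the reverse at 6.57, 15.3 and 5.56 CPM against 1575, 1622 and 2827 CPM (-7.79 ± 0.52). WNT target and stem cell genes split evenly, with 9 of 25 higher in Caco2 and 9 in HepG2. Their median of -0.35 turned to 0.18 with library size alone and to 0.54 with limma on log2(rescaled TPM + 1). The feedback inhibitor DKK1 (842, 1150.4 and 724 against 66.4, 58.9 and 78.6 CPM), LEF1 (6.10 ± 0.45), EPHB2 (6.09 ± 0.37) and PROM1 (4.13 ± 0.29) were higher in Caco2. The secreted inhibitor NOTUM (5.26, 3.46 and 6.84 against 256, 204 and 158 CPM), SP5 (-2.95 ± 0.30), NKD1 (-2.31 ± 0.27) and the stem cell receptor LGR5 (-1.37 ± 0.39) were higher in HepG2, and the LGR5 call was lost without Caco2 replicate 2 (-0.99). RNF43 and LGR4 were not called.

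HOX genes, which mark position along the body axis, had 23 of 29 tested members higher in Caco2 and 3 in HepG2. The median log2 difference was 6.33, or 4.93 with members at 0 counts placed at their bound. HOXB7 measured 56.5, 38.8 and 44.4 CPM in Caco2 and 0.267, 0.179 and 0.164 CPM in HepG2, HOXB9 26.8, 50.1 and 36.6 against 0, 0.179 and 0 CPM, and HOXB3 had no count in HepG2 (at least 228-fold). The most posterior genes tested, HOXA13 (16.5, 12.1 and 12.7 against 1.20, 0 and 0.902 CPM), HOXB13 (6.63 against 0.0992 CPM) and HOXC13 (8.21 against 0.082 CPM), were higher in Caco2. HOXD1 (-4.72 ± 0.46), HOXA4 (-1.34 ± 0.29) and HOXC9 (-2.51 ± 0.57) were higher in HepG2, and HOXA3 was not called (-0.56). Members from all 4 clusters were among those higher in Caco2, with HOXD4 and HOXD8 from the HOXD cluster at means of 1.38 and 2.73 CPM.

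Oncofetal and imprinted genes were divided evenly (9 higher in Caco2 and 10 in HepG2 of 22), and their median of -0.14 changed sign under several settings, to 0.41 without HepG2 replicate 1 among them. Alpha-fetoprotein (AFP), the fetal counterpart of albumin, measured 19.4, 11.4 and 8.69 CPM in Caco2 and 1515, 6000.0 and 3915 CPM in HepG2. IGF2 was high in both lines, at 2281, 1581 and 1746 CPM and 6719, 10409 and 3657 CPM (-1.89 ± 0.37). GPC3, a surface proteoglycan of fetal liver, was also present in Caco2 (399, 296 and 341 against 1222, 631 and 854 CPM). The RNA binder LIN28B (-2.12 ± 0.29) and the chromatin protein HMGA2 (-2.14 ± 0.26) were higher in HepG2. IGF2BP3 (2.51 ± 0.38), GRB10 (2.78 ± 0.22) and MEST (1.65 ± 0.24) were higher in Caco2.

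Iron and metal genes had 13 of 22 tested members higher in HepG2 and 6 in Caco2 (median -3.25). Hepcidin (HAMP), the liver hormone of iron balance, was 0.182, 0.189 and 0.142 CPM in Caco2 and 21.8, 29.5 and 18.8 CPM in HepG2, and TFR2, an iron sensor, had a log2 difference of -6.85 ± 0.30. The ferritin chains FTL (1693, 2501 and 1794 against 6496, 9579.7 and 9299 CPM) and FTH1 (-1.004 ± 0.23) were called higher in HepG2. FTH1 sat at the 2-fold threshold, and its call was lost without any 1 of Caco2 replicates 1 and 3 or HepG2 replicates 2 and 3, with differences of -0.90 to -0.99. Hephaestin (HEPH), the oxidase of intestinal iron export, had 60.5, 94.8 and 63.6 CPM in Caco2 and 0, 0.0893 and 0 CPM in HepG2. Its counterpart in plasma, ceruloplasmin (CP), was the reverse at 0.304, 0.314 and 0.0475 CPM against 82.7, 134 and 84.2 CPM. The apical importer SLC11A2 (1.81 ± 0.23), the exporter ferroportin (SLC40A1, 2.40 ± 0.32), the reductase CYBRD1 (4.08 ± 0.56) and the transferrin receptor TFRC (2.04 ± 0.23) were higher in Caco2. The metallothioneins MT1G and MT2A were higher in HepG2 but varied among its libraries, MT1G at 114, 495 and 23.0 CPM and MT2A at 186, 550.3 and 82.0 CPM, each highest in replicate 2. These genes are close copies, so reads could be split among them.

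Of 21 tested acute phase and cytokine genes, 13 were higher in HepG2 and 6 in Caco2 (median -2.82). SAA4, a constitutive serum amyloid, had 1 count in Caco2 and 44.1, 343 and 184 CPM in HepG2. CRP had no count in either line. The chemokine CCL20 (-6.59 ± 0.62) and the receptor antagonist IL1RN (0.0203 against 24.7 CPM) were higher in HepG2, while IL18 (42.5, 41.9 and 41.2 against 0.401, 1.52 and 3.61 CPM), NOS2 (5.19 ± 0.74) and SOCS3 (5.63 ± 0.56) were higher in Caco2. Of the growth factor genes, 15 of 29 were higher in HepG2 and 7 in Caco2. Their median of -1.17 turned to 0.17 with limma on log2(rescaled TPM + 1). The EGF-type ligands were divided between the lines. AREG (149, 181 and 162 against 2.41, 0.893 and 1.31 CPM) and EREG (76.2, 49.9 and 87.8 against 3.47, 0.715 and 0.492 CPM) were higher in Caco2, and TGFA (0.152, 0 and 0.19 against 35.5, 28.0 and 47.2 CPM) in HepG2. Their receptor EGFR was not called (0.86), whereas ERBB3 was higher in HepG2 (-2.72 ± 0.25). BMP2 had 72.9, 42.5 and 42.0 CPM in Caco2 and 1 count over the HepG2 libraries, and BMP4 was higher in HepG2 (-1.67 ± 0.30). IGFBP1, an insulin-suppressed liver product, had 0.0912, 0 and 0 CPM in Caco2 and 103, 195 and 38.3 CPM in HepG2.

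Cell cycle genes had 10 of 35 tested members higher in Caco2 and 1, CDKN1A, in HepG2 (median 0.49). The Caco2 count was 18 with library size alone and 23 with limma on log2(rescaled TPM + 1). MKI67 (142 ± 36.6 against 206 ± 74.2 CPM) and PCNA (229 ± 30.5 against 190.4 ± 13.5 CPM), general proliferation markers, were not called. The mitotic factor FOXM1 was 200.78, 264 and 255 CPM in Caco2 and 42.8, 48.7 and 32.8 CPM in HepG2, and CDK1 (1.82 ± 0.25) had the same direction. CDKN1A, which inhibits cyclin-dependent kinases, was 15.4, 13.4 and 13.8 CPM in Caco2 and 79.0, 54.1 and 65.6 CPM in HepG2 (-2.22 ± 0.22), with no overlap. CCND2 was the member furthest toward Caco2 (115, 141 and 74.2 against 2.67, 0.447 and 1.64 CPM). In view of the mitochondrial counts in HepG2, nuclear genes of the same organelle were examined. Of 37 tested respiratory chain genes, 7 were higher in Caco2 and 7 in HepG2. Their median of 0.11 changed sign without HepG2 replicate 1 (-0.03), without Caco2 replicate 2 (-0.08) and with the length offset (-0.34). The HepG2 count was 11 without Caco2 replicate 2 and 13 with the length offset. NDUFA1 (-2.45 ± 0.36) and COX5B (-1.40 ± 0.32) were higher in HepG2, SDHD (1.47 ± 0.23) and UQCRFS1 (1.47 ± 0.22) in Caco2. ATP5F1B was called higher in Caco2 (1.08 ± 0.25), but at -0.47 with the length offset, and its call was also lost without Caco2 replicate 2 (0.93). Of 27 tested factors of mitochondrial RNA, 6 were higher in Caco2 and 4 in HepG2. In both lists the shares called lay under those of all tested genes, but for mitochondrial RNA 13 were higher in Caco2 with library size alone and 15 with limma on log2(rescaled TPM + 1). The mitochondrial RNA polymerase POLRMT was 31.0, 44.4 and 34.2 CPM in Caco2 and 163, 188 and 133 CPM in HepG2. TFAM, which packages mitochondrial DNA, was the reverse (229, 194 and 200.2 against 52.0, 49.9 and 50.4 CPM), as was the RNA-degrading PNPT1 (1.31 ± 0.20). The RNA stabiliser LRPPRC was not called (0.67), and its partner SLIRP was higher in HepG2 (-2.05 ± 0.32).

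Folding and stress genes of the endoplasmic reticulum had 7 of 25 tested members higher in Caco2 and 4 in HepG2, and the Caco2 count was 13 with library size alone and 14 with limma on log2(rescaled TPM + 1). The chaperones HSPA5 (1390.5 ± 174 against 1246 ± 186 CPM) and HSP90B1 (0.08) were not called. Shares of the 106 genes of the plasma, lipoprotein, coagulation and complement lists were taken of the counts outside the mitochondrially encoded genes. They were 6.57% to 10.3% in HepG2 and 0.539% to 0.653% in Caco2. The disulfide isomerase P4HB (-1.87 ± 0.27) and ATF4 (-1.37 ± 0.25) were higher in HepG2, and CHAC1 (5.84 ± 0.50), CREB3L1 (6.20 ± 0.64) and ATF6 (1.59 ± 0.30) in Caco2. Interferon and antigen presentation genes had 7 of 20 higher in Caco2 and 5 in HepG2, and without HepG2 replicate 2 the counts were 4 and 5. B2M, the light chain of class I molecules, was not called (159.6 ± 22.1 against 130.3 ± 29.5 CPM). CD74, the class II chaperone, was high in both lines without the class II gene HLA-DRA, which had no count (429 ± 139 and 489 ± 88.3 CPM).

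**Figure D3:**
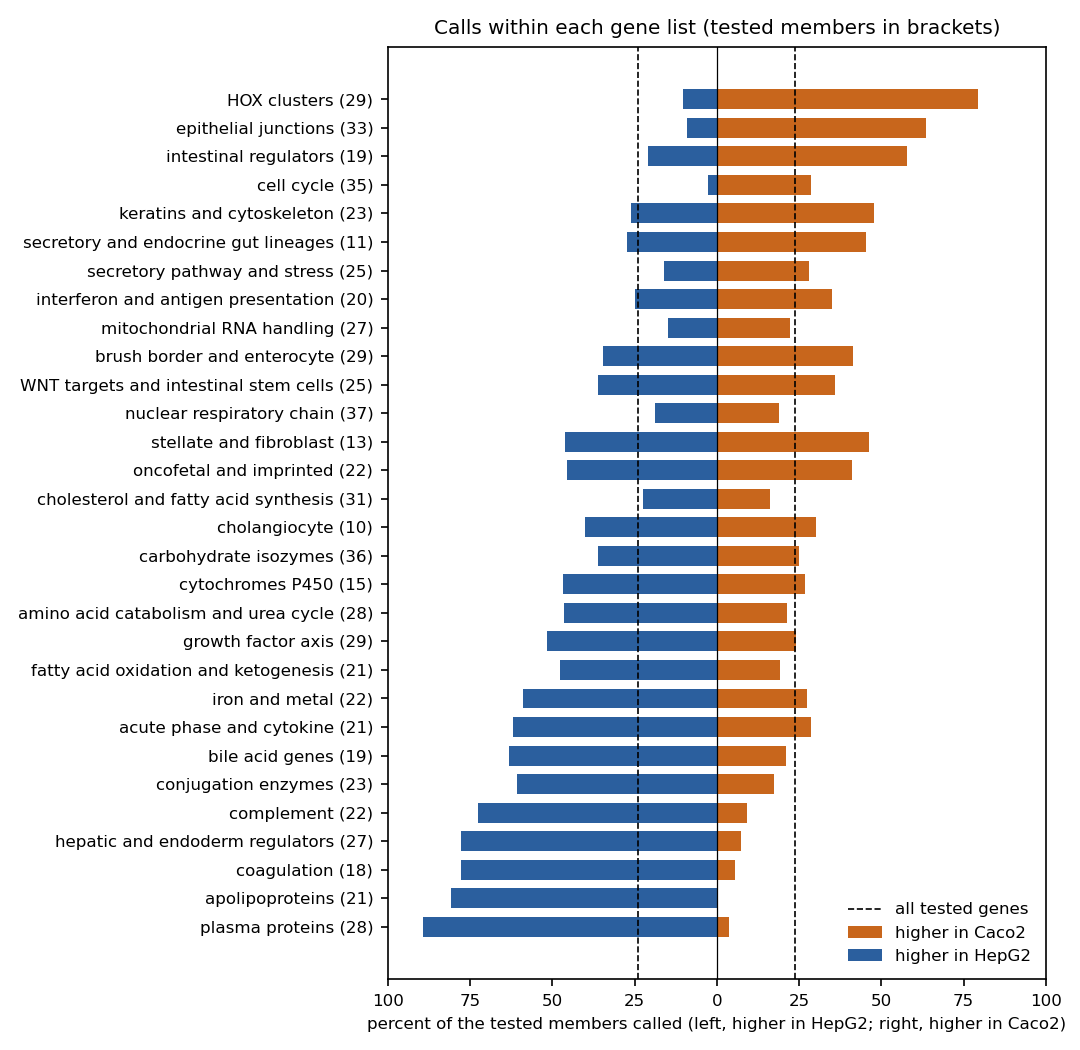
Percent of the tested members called higher in HepG2 (blue, to the left) and in Caco2 (orange, to the right) for 30 gene lists with at least 10 tested members, given in brackets, with dashed lines at the percent of all tested genes called. HOX clusters and epithelial junctions reach furthest to the right, and plasma proteins and apolipoproteins furthest to the left.

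Pairs of related genes were compared within each library by their log2 ratio of rescaled TPM, a length-scaled unit that allows a comparison between genes. Of the 17 pairs, 12 had values above 0 in every library, and 7 of those had ratios that did not overlap between the lines. No such share was taken for other pairs of genes. Among single tested genes, the CPM of the lines did not overlap for 68.2%, so the count of pairs does not set these pairs apart. The GATA4 to GATA6 ratio was -5.46, -4.85 and -4.31 in Caco2 and 3.14, 3.01 and 2.86 in HepG2, so GATA6 was the main form in Caco2 and GATA4 in HepG2. NR2F1 to NR2F2, paralogous orphan receptors, also changed sign (-6.77, -6.22 and -6.80 against 0.82, 1.34 and 1.49). MAT1A, the adult liver form of methionine adenosyltransferase, reached the level of the general form MAT2A in HepG2 (ratios -0.06, 0.73 and 0.20) and lay far under it in Caco2 (-6.61, -6.72 and -6.20). PKM exceeded the liver form PKLR in both lines (mean ratios -11.82 and -8.38). The ratios of CES1 to CES2 (means 2.97 and 1.73) did not overlap either, but narrowly, with the lowest Caco2 value at 2.63 and the highest HepG2 value at 2.44. SLC2A2 stayed far under SLC2A1 and PCK1 under PCK2 in both lines, with overlapping ranges. With TPM + 1 in both terms, which takes in all 17 pairs, 13 did not overlap.

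**Figure D4:**
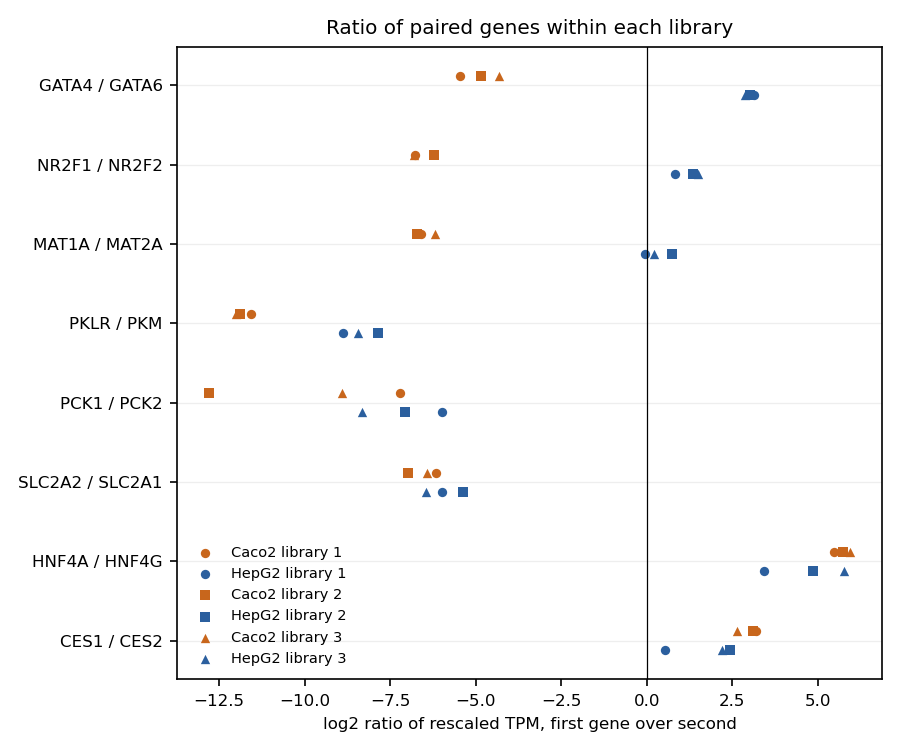
Log2 ratio of rescaled TPM of the first gene over the other in each library, for 8 of the 12 pairs with values above 0 in all 6 libraries, Caco2 in orange and HepG2 in blue with shapes for replicates 1 to 3. GATA4 to GATA6, NR2F1 to NR2F2 and MAT1A to MAT2A show the widest separation, and PCK1 to PCK2 and SLC2A2 to SLC2A1 overlap.

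Genes high in both lines beyond the 7 others were sought by a rule on rescaled TPM, which took genes in the top 5% for excess over the highest of the other lines and, of these, the 10 with the highest level in their lower line. The rule gave EEF1A1, RPS24, RPL4, RPS2, RPL23, RPL13, RPL35, RPL37, RPL36A and RPS15A, an elongation factor and ribosomal proteins. Because its last step ranks by level, the rule takes abundant genes. Their excess over the highest other line, on log2(rescaled TPM + 1), was small, from 0.14 (EEF1A1) to 0.84 (RPL13). Mean rescaled TPM of EEF1A1 was 15555 in Caco2, 18297 in HepG2 and 14079.5 in BJ. EEF1A1 measured 17089, 19035 and 20992 CPM in Caco2 and 20280.3, 22772 and 27567 CPM in HepG2. Of the 10, RPL13 (-1.72 ± 0.28), RPL35 (-1.44 ± 0.27) and RPL23 (-1.09 ± 0.28) were called higher in HepG2. RPL23 lost its call without Caco2 replicate 3 (-0.88) or HepG2 replicate 3 (-0.97). Its call was also lost with library size alone (-0.59), limma on log2(rescaled TPM + 1) (-0.18), no low-count filter (-0.99) or the length offset (-0.96). Ribosomal proteins have many processed copies in the genome, so reads could be split.

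Differences were also summarised by chromosome, as medians without a test, since genes of a chromosome are not replicates. Over all tested genes, chromosome 5 had a median of 0.69, with 38.8% of its 596 genes called higher in Caco2 and 14.1% in HepG2. Chromosome 16 was the reverse at -0.75, with 9.50% of its 674 genes higher in Caco2 and 40.7% in HepG2. Low-count genes weigh on such medians, so protein-coding genes at 10 rescaled TPM or more in both lines were also taken (5213 genes, median -0.27). Chromosome 5 then stood at 0.44, chromosome 12 at 0.23 and chromosome 13 at 0.26, and chromosomes 16, 19 and 14 at -0.74, -0.68 and -0.64. Taking each library in turn against the mean of the other line, the median of chromosome 5 lay between 0.32 and 0.61 and that of chromosome 16 between -0.85 and -0.54. Of the chromosomes, 10 lay at least 0.3 from the median of all tested genes and 6 did so among the higher-level genes. What sets these shifts was not tested.

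**Figure D5:**
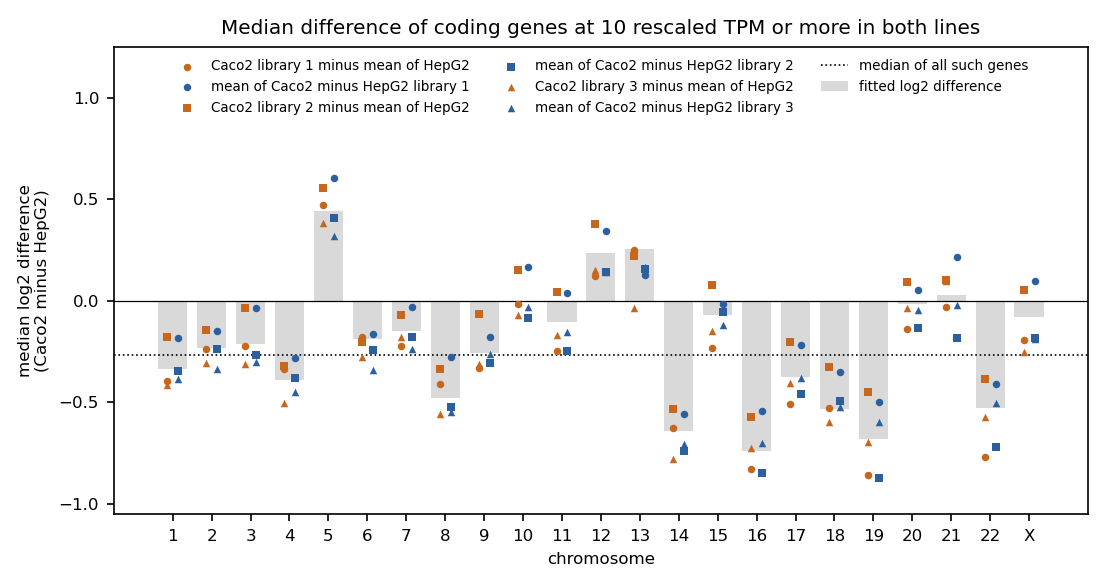
Median log2 difference, Caco2 minus HepG2, of protein-coding genes at 10 rescaled TPM or more in both lines for each chromosome (grey bars), with points for each library against the mean of the other line and a dotted line at the median of all such genes. Chromosome 5 stands highest at 0.44 and chromosome 16 lowest at -0.74, and the points of each stay on their side of the dotted line.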

How the data were processed

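Poly-A RNA of 9 established cell lines was sequenced, and 6 libraries (3 labelled Caco2, 3 labelled HepG2) entered the comparison. The authors deposited a table per library of estimated counts, transcript lengths and TPM for 176241 transcripts. CASAVA 1.8, kallisto 0.43.1 and GRCh 38 appear in the submitters' processing notes without a stated role, and the way reads were assigned is not given in the sources used here. Here, the deposited estimated counts of 159887 transcripts with a GENCODE 29 match were added up over 34584 genes, and the gene sums were rounded. The 16354 transcripts with no match held 0.745% to 3.03% of the estimated counts. The 13 mitochondrially encoded genes were set aside before scaling. Rescaled TPM is the TPM deposited by the authors with these genes set aside and the rest scaled up to the same total per library.

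The 6 libraries were fitted with edgeR 4.0.16 (robust quasi-likelihood, filterByExpr, TMM scaling, Benjamini-Hochberg adjustment over 13664 genes) in R 4.3.3, after the script was tested on simulated data. A call needed an adjusted p under 0.05 and at least 2-fold. Alternatives used limma 3.58.1, DESeq2 1.42.0, other scalings and filters, a transcript length offset (from the ratio of estimated count to TPM) and each library left out in turn. Tables and permutation tests were made in Python 3.11.15 with pandas 2.3.3 and scipy 1.17.1. Genes were named by rule: the 15 protein-coding genes of each direction with the largest called difference, at 10 rescaled TPM or more in the higher line. To these came the leading and the most abundant members of each list, paired genes, markers, regulators and genes high in both lines. Further list members are given as values beside their list's counts. The members and lists were chosen with earlier results of these data known. Genes on the Y chromosome are left out of the text, and some other list members and pairs, counted in their lists, are not reported here. Depth limits low genes: 3 counts over a line's libraries are 0.0429 CPM in Caco2 and 0.0972 CPM in HepG2, which covers counting error only.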

Additional observations from a re-analysis of the deposited data

Results flagged for a closer look

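Mitochondrially encoded genes lay outside the comparison, and their share of the estimated counts stood above that of every other line in all 3 HepG2 libraries. It was 71.0602% in replicate 1, 33.7726% in replicate 2 and 32.5573% in replicate 3, against 1.70% to 3.56% in Caco2 and at most 5.72% in the 24 libraries of the other 8 lines. The cause was not tested.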

How the results depend on the processing

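The number of genes higher in Caco2 was 3246 and moved to 4947 with library size as the only scaling, to 5334 with limma on log2(rescaled TPM + 1) and to 2149 with a test against a 2-fold change. The number higher in HepG2 was 3262 and moved to 1607 with limma on log2(rescaled TPM + 1). Leaving out 1 library at a time gave 3027 to 3634 genes higher in Caco2 and 3062 to 3384 higher in HepG2. RLE scaling, DESeq2, no filter on low counts, protein-coding genes alone, mitochondrial genes kept, all 27 libraries in the fit, and 2 settings chosen after seeing the data (nuclear copies of mitochondrial genes set aside, an offset for mean transcript length) stayed within 1.5 times of both counts. The difference in the share of HNF4A TPM from P2 was 9.11 percentage points, 12.6 from estimated counts and 7.94 to 10.7 with 1 library left out. Gene pairs whose ratios did not overlap numbered 7 among those with values above 0 in every library, and 13 among all pairs with TPM + 1. Chromosomes at least 0.3 from the median numbered 10, and 6 among protein-coding genes at 10 rescaled TPM or more. Of 186 named genes, 22 changed sign in at least 1 setting, 21 of them not called, VIL1 and HNF4A among these. The called one was ATP5F1B (1.08), at -0.47 with the length offset. GLUL (-0.35, not called) was 0.17 with library size alone, 0.59 with the length offset and, past the threshold, 1.38 with limma on log2(rescaled TPM + 1). Of 492 called list members, 6 turned: ATP5F1B, ERN1 (to -0.05 with the length offset) and, with limma on log2(rescaled TPM + 1), FASN (0.47), SREBF1 (0.30), FGFR1 (0.27) and GSTM3 (0.20). Over all calls, 7 were called the other way with limma on log2(rescaled TPM + 1) and 3 with the length offset. Apart from the smaller samples and filters that these settings set by construction, the cause was not tested. No paired analysis was possible because the labels give the libraries no replicate numbers (those used here follow the order of the sample records), and the lines share only 1 P number.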
